A study of Mus musculus with 24 samples.

Results

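Collagens are the proteins that give the extracellular matrix its tensile strength. Each molecule is a triple helix of 3 chains, and one collagen type can combine chains from different genes. Fibrillar collagens such as I, III and V build the cables of connective tissue, collagen IV forms the network of basement membranes, FACIT collagens (fibril-associated collagens with interrupted triple helices) decorate the fibrils, and the remainder includes the beaded filaments of collagen VI, the anchoring fibrils of collagen VII, the short-chain collagens VIII and X, and transmembrane or endostatin-type collagens. Fibroblasts are the main source of collagens I, III, V and VI. Collagen genes were taken by symbol, as every mouse gene named Col, a number, a and a number, and 44 such genes were present among the 39017 genes counted. Of these, 31 reached a mean of at least 5 counts over the 24 libraries and were analysed, namely 9 of 11 fibrillar, 5 of 6 basement membrane, 6 of 9 FACIT and 11 of 18 other collagens, among 14361 genes that reached that mean. The members nearest the limit were Col15a1 with a mean of 6.54 counts and Col4a4 with 7.08, while Col4a3 with 4.33 and Col19a1 with 2.54 lay just below it. The 13 genes below the limit were Col2a1, Col4a3, Col6a5, Col6a6, Col8a2, Col9a1, Col9a2, Col13a1, Col19a1, Col23a1, Col24a1, Col25a1 and Col26a1, none of which exceeded 24 counts in any library.

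The libraries came from NIH 3T3 cells, a mouse embryonic fibroblast line, carrying stable retroviral pBabeNeo constructs under G418 selection as pooled lines, with 3 RNA-seq libraries in each of 8 groups. Besides the empty vector (EV), the confluent groups expressed TAZ-CAMTA1 or YAP-TFE3, the fusion proteins that drive epithelioid hemangioendothelioma, or TAZ4SA, YAP5SA or full-length TFE3. TAZ4SA and YAP5SA are TAZ and YAP with their LATS-phosphorylated serines replaced by alanine, so that the Hippo kinases no longer restrain them. The fusions keep the TEAD-binding amino terminus of TAZ or YAP and end in the carboxy terminus of CAMTA1 or TFE3, which are themselves transcription factors. CAMTA1 cells and their own empty vector control (EVsub) were labelled as collected at sub-confluence, EVsub by its title only. The labels place TAZ-CAMTA1 among the cultures held confluent for 48 h, although the methods can be read as grouping it with CAMTA1 at sub-confluence, so TAZ-CAMTA1 is given against both controls. For replicate 3 of YAP-TFE3 the description carried the number of another replicate, and the title was followed. All constructs were overexpressed in one line of one species. By the study's methods the 3 replicates of a construct came from separate transductions, each put under stable selection, so p-values measure the spread between separately made lines of that one parent.

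Libraries held 16471181 to 30132586 counts (median 22298975). All 7 fibroblast markers were detected in every group, with a summed level of 10094 to 25477 CPM (counts per 1000000 counts of the TMM-effective library size). TAZ4SA (10094 to 13874 CPM) and YAP5SA (15205 to 18977 CPM) lay below EV (22152 to 25477 CPM) in this sum. The epithelial markers summed to at most 1.15 CPM and the blood cell markers Ptprc and Adgre1 to at most 0.176 and 0 CPM, while Cd68 brought the blood sum to 12.3 to 56.1 CPM in TAZ4SA and 46.5 to 77.8 CPM in YAP5SA against 2.58 to 3.58 CPM in EV. Of the 7 fibroblast markers, Fn1, S100a4, Pdgfra and Pdgfrb were called lower in both full-length lines. The 4 endothelial markers summed to 0.380 to 12.1 CPM. Of the chondrocyte markers, Acan was at 0 in all libraries and Sox9, a transcription factor that activates cartilage collagen genes, ran from 102 to 147 CPM in EV down to 3.04 to 3.88 CPM in YAP5SA. The part of these markers in the collagen results was not tested, and in bulk libraries fewer expressing cells and less RNA per cell cannot be told apart. For the construct check, Camta1 was higher in CAMTA1 than in EVsub cells (log2 fold change 1.07, adjusted p = 0.0019), Wwtr1, the gene of TAZ, was higher in TAZ4SA (0.28, adjusted p = 0.0113), Yap1 was lower in YAP5SA (-0.86, adjusted p = 8.13e-09) and Tfe3 was not called in TFE3 cells (-0.30, adjusted p = 0.308). Whether reads from the constructs are counted under the mouse genes was not tested, so these genes do not check the labels. In collagen content, replicate 2 of EVsub and replicate 1 of YAP-TFE3 stood apart from their groups.

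Per kilobase of the principal transcript and averaged over all libraries, collagen I was the most abundant collagen, with 1620 CPM per kb for Col1a2 and 542 for Col1a1. Col3a1 followed with 487 CPM per kb, Col6a1 with 348, Col6a2 with 187 and Col5a2 with 170, and no other member exceeded 100. Of the rest, 9 members lay between 10 and 100 CPM per kb, 4 between 1 and 10, and 12 below 1. Col1a1 and Col3a1, neighbours in this order, overlapped widely across libraries (265 to 1070 and 83.8 to 1090 CPM per kb). The fold between the highest and the lowest group mean was 1.50 for Col4a6, the steadiest member, and 11.5 for Col27a1. No such fold is given for the 5 members below 0.2 CPM per kb, Col6a4, Col14a1, Col22a1, Col15a1 and Col4a4, whose lowest groups rest on few counts.

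In EV cells the 31 collagen genes took 1.95 to 2.42% of all counts, of which Col1a1, Col1a2 and Col3a1 together made 67.0 to 70.8%. The share was 2.67 to 3.12% in TAZ-CAMTA1 and 2.74 to 4.07% in YAP-TFE3 cells, with replicate 1 of YAP-TFE3 the highest. It was 1.54 to 1.92% in TAZ4SA, 1.58 to 1.63% in YAP5SA and 1.45 to 1.74% in TFE3 cells. The sub-confluent groups held 1.64 to 2.76% in EVsub and 1.11 to 1.88% in CAMTA1, so that TAZ-CAMTA1 overlapped EVsub. Both fusion groups thus lay wholly above EV and the other 3 confluent groups wholly below it. Each of these 5 differences had an exact two-sided permutation p of 0.10, the smallest that 3 libraries against 3 allow, and an adjusted p of 0.16 over the 11 comparisons made. After TMM scaling the fusions stayed above EV (26041 to 29791 CPM in TAZ-CAMTA1, 26232 to 40364 CPM in YAP-TFE3, 18415 to 23130 CPM in EV). TFE3 cells stayed below it at 13721 to 16636 CPM (exact permutation p = 0.10 for each of the 3, adjusted p = 0.18). EVsub, at 15116 to 27590 CPM, overlapped TAZ-CAMTA1 after scaling too. TAZ4SA at 16530 to 19624 CPM and YAP5SA at 19625 to 20511 CPM overlapped EV on that scale (exact permutation p = 0.30 and 0.80). Their TMM factors, 0.810 to 1.04 and 0.773 to 0.829, were below the 1.04 to 1.06 of EV, and the separation of the full-length lines from EV was seen in the unscaled share but not in the scaled sum. By class, the FACIT sum was below EV in both full-length lines on the scaled level too, at 157 to 212 CPM in TAZ4SA and 171 to 193 CPM in YAP5SA against 333 to 399 CPM (exact permutation p = 0.10 for each, adjusted p = 0.16). In EV, Col16a1 alone held 275 to 342 CPM of that sum. The sum of the other collagens was below EV as well, at 2493 to 3017 and 2198 to 2342 CPM against 3151 to 3329 CPM (exact permutation p = 0.10, adjusted p = 0.22). In EV most of it came from Col6a1, Col6a2 and Col6a3. The basement membrane sum was below EV in YAP5SA (1139 to 1277 against 1406 to 1593 CPM, exact permutation p = 0.10, adjusted p = 0.16) and overlapped it in TAZ4SA (1410 to 1435 CPM). TFE3 cells were below EV too in the sum of the other collagens (2257 to 2688 CPM, exact permutation p = 0.10, adjusted p = 0.22). So was their basement membrane sum (1075 to 1282 CPM, exact permutation p = 0.10, adjusted p = 0.16), while their FACIT sum overlapped EV. The fibrillar sum was below EV in TFE3 cells (10067 to 12370 against 13486 to 17986 CPM). It was above EV in TAZ-CAMTA1 (21171 to 24442 CPM) and YAP-TFE3 (21307 to 33880 CPM). Each had an exact permutation p of 0.10 and an adjusted p of 0.18, while TAZ4SA and YAP5SA overlapped EV. The basement membrane and FACIT sums of both fusions were above EV too (exact permutation p = 0.10, adjusted p = 0.16). Their sums of the other collagens overlapped EV.

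**Figure D1:**
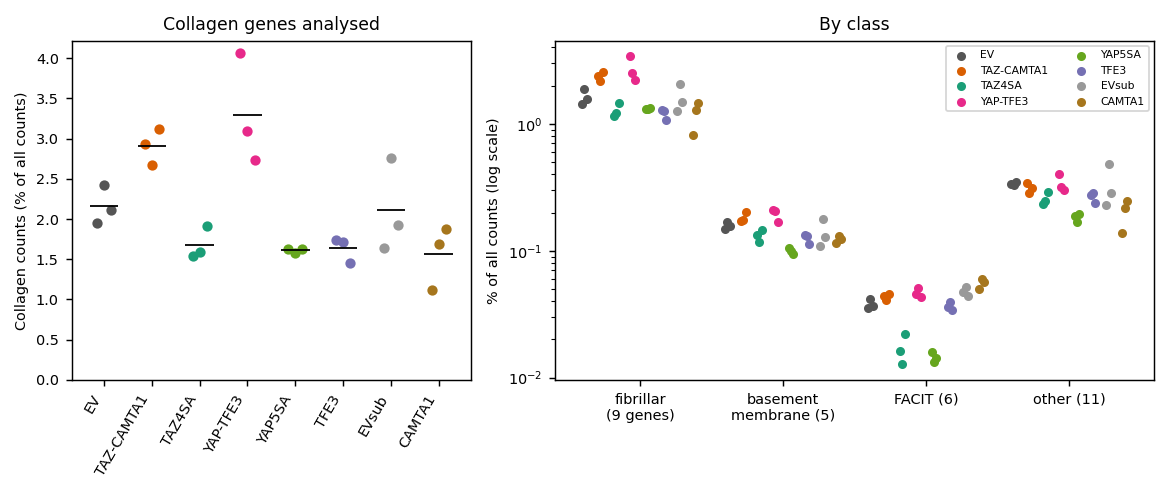
Collagen counts as a percentage of all counts in each library. The left panel shows the 31 genes together, with points for libraries and a line at the group mean, and the right panel splits them by class on a log axis. The 3 TAZ-CAMTA1 libraries sit between 2.67 and 3.12% and the 3 YAP-TFE3 libraries between 2.74 and 4.07%, all above the EV libraries at 1.95 to 2.42%.

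Gene by gene, differences were taken as called at an adjusted p under 0.05 (quasi-likelihood fit of edgeR, Benjamini-Hochberg over all 14361 genes). In TAZ-CAMTA1 against EV, 9 of 31 collagens rose and 3 fell, where 12.5% of all genes tested rose and 8.98% fell. For YAP-TFE3 the counts were 13 risen and 2 fallen, where 10.6% of all genes rose and 4.74% fell. In TAZ4SA 10 collagens rose and 9 fell, against 31.1% and 26.4% of all genes, and in YAP5SA 9 rose and 12 fell, against 36.3% and 34.9%. The risen members thus made 29.0% and 41.9% of the collagens under the fusions, above the background, and 32.3% and 29.0% under TAZ4SA and YAP5SA, close to or below it. Median log2 fold changes over the members were 0.20 in TAZ-CAMTA1, 0.32 in YAP-TFE3, -0.11 in TAZ4SA and -0.17 in YAP5SA, beside medians over all genes between -0.0041 and 0.049. Without TAZ-CAMTA1 replicate 3, 7 collagens were called in TAZ-CAMTA1, and without YAP-TFE3 replicate 1, 9 were called in YAP-TFE3, in place of 12 and 15, with 7 risen in place of 13. The 3 fallen in TAZ-CAMTA1 became 1 without EV replicate 2 or 3 or TAZ-CAMTA1 replicate 2 or 3, and the 2 fallen in YAP-TFE3 became 1 without EV replicate 2.

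The other comparisons with a control moved fewer collagens. TFE3 cells had 2 risen and 1 fallen member, where 2.36% of all genes rose and 1.02% fell. CAMTA1 against EVsub gave 1 risen and 3 fallen, where 1.29% rose and 0.891% fell. EVsub against EV, the empty vector labelled sub-confluent against the confluent one, gave 2 risen and 3 fallen, where 12.5% rose and 9.59% fell. In either direction, 9.68% of the members were called in TFE3 and 12.9% in CAMTA1, above the 3.38% and 2.18% of all genes. In EVsub 16.1% were called, below the 22.1% of all genes. The TFE3 count fell to 1 without EV replicate 2 or 3 or TFE3 replicate 2 or 3, the CAMTA1 count was 1 without EVsub replicate 2 or CAMTA1 replicate 1 or 2 and 8 without EVsub replicate 1, and the EVsub count was 3 without EV replicate 3 or EVsub replicate 1. These groups share their controls with other comparisons, and 6 of the 7 comparisons with a control use the same EV libraries.

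The fusions and the full-length proteins were also set directly against one another. By the sub-confluent reading of the methods, TAZ-CAMTA1 would differ from TAZ4SA and YAP-TFE3 in density too. Construct and density could then not be told apart in these comparisons. TAZ-CAMTA1 was higher than TAZ4SA at 14 members and lower at 8, where 26.6% of all genes were higher and 28.1% lower. YAP-TFE3 was higher than YAP5SA at 15 and lower at 6, where 36.4% were higher and 34.5% lower. The median differences over members were 0.41 and 0.73 on the log2 scale, beside 0.0032 and 0.047 over all genes. In either direction, 22 and 21 of the 31 members were called (71.0% and 67.7%), where 54.7% and 70.9% of all genes were, so that the YAP count was no higher than the background. Between the fusions, TAZ-CAMTA1 was higher than YAP-TFE3 at 1 member and lower at 3 (5.32% and 6.32% of all genes), and the 1 higher was not called without TAZ-CAMTA1 replicate 2 or 3 or YAP-TFE3 replicate 3. TAZ4SA was higher than YAP5SA at 7 and lower at 3 (22.8% and 19.6%). The counts of all 4 direct comparisons include Col4a4, which reached the count limit through TAZ4SA and YAP-TFE3.

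**Figure D2:**
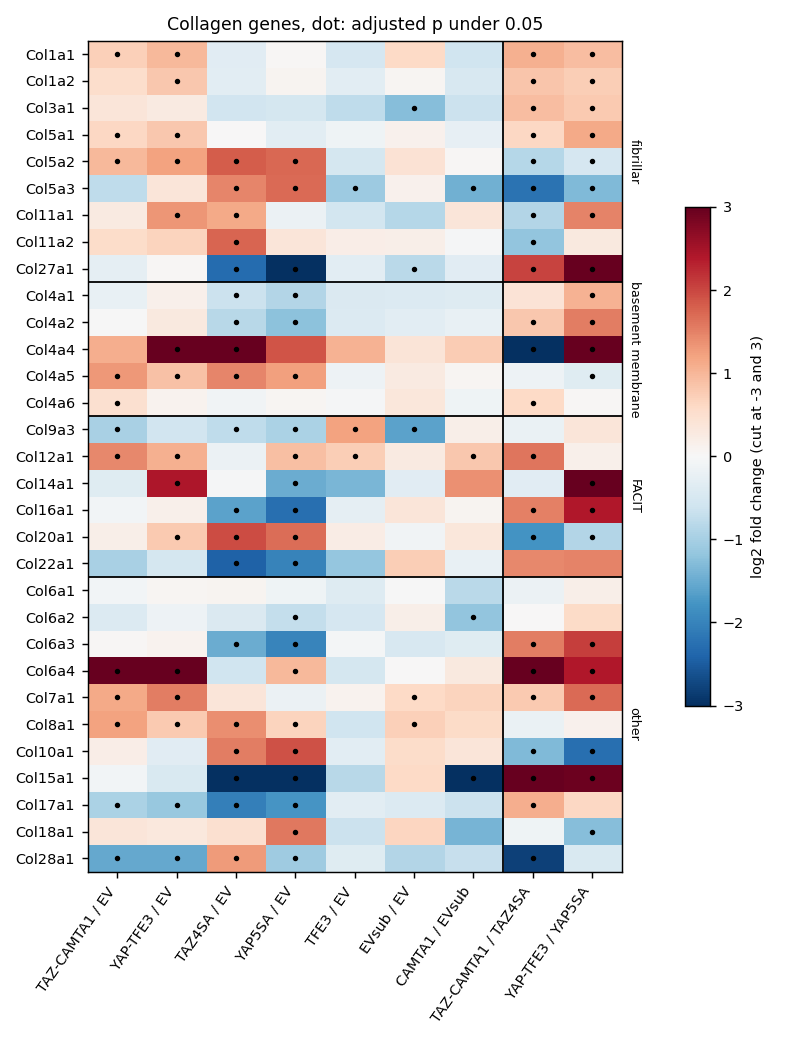
Fitted log2 fold change of the 31 collagen genes (rows, by class) in 9 comparisons (columns), coloured from -3 to 3, with a dot where the adjusted p was under 0.05. Among fibrillar chains Col5a2 is dotted as higher in both fusions and both full-length proteins, while Col27a1 is dotted as lower under TAZ4SA and YAP5SA only among those 4.

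Of the fibrillar collagens, 3 of 9 rose in TAZ-CAMTA1 and 5 of 9 in YAP-TFE3, where 12.5% and 10.6% of all genes rose, and 0 fell in either by edgeR. Without EV replicate 1 or 3 or TAZ-CAMTA1 replicate 2 or 3 the first count was 1, and the second was 1 without YAP-TFE3 replicate 1 and 3 without EV replicate 1. At an unadjusted p under 0.05 the falling members were 1 and 0, and by DESeq2 also 1 and 0. Values of a group are given in ascending order. Col1a1, the alpha 1 chain of collagen I, stood at 2384, 2725 and 2889 CPM in EV, at 4069, 4385 and 4772 in TAZ-CAMTA1 and at 4216, 5132 and 6345 in YAP-TFE3. All fusion libraries lay above all EV libraries. The log2 fold change was 0.73 ± 0.25 (SE) in TAZ-CAMTA1 (adjusted p = 0.0426) and 0.97 ± 0.25 in YAP-TFE3 (adjusted p = 0.00974). The TAZ-CAMTA1 call was lost on leaving out any 1 of its 6 libraries (adjusted p = 0.0572 to 0.151), and the YAP-TFE3 call without EV replicate 1 or YAP-TFE3 replicate 1 (adjusted p = 0.0531 to 0.0852). In TAZ4SA (1804 to 2384 CPM) and YAP5SA (2629 to 2944 CPM) Col1a1 was not called, with log2 fold changes of -0.34 and 0.05. Both direct comparisons were called: 1.06 ± 0.25 for TAZ-CAMTA1 over TAZ4SA (adjusted p = 0.00131) and 0.93 ± 0.25 for YAP-TFE3 over YAP5SA (adjusted p = 0.0025), and they stayed called without any single library.

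Col1a2, the partner chain in collagen I, followed Col1a1. It measured 7344, 8120 and 8561 CPM in EV, 10850, 11356 and 12414 in TAZ-CAMTA1 and 11636, 12898 and 17864 in YAP-TFE3, again without overlap. It rose in YAP-TFE3 (0.82 ± 0.20, adjusted p = 0.00643, lost without YAP-TFE3 replicate 1 at adjusted p = 0.0830), while TAZ-CAMTA1 was not called (0.53 ± 0.20, adjusted p = 0.0645). It was higher in TAZ-CAMTA1 than TAZ4SA by 0.83 ± 0.20 and in YAP-TFE3 than YAP5SA by 0.73 ± 0.20 (adjusted p = 0.00142 and 0.00261).

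Col3a1 forms the homotrimer of collagen III, which is laid down in loose and healing tissue. Its EV libraries were spread widely, at 2614, 3051 and 4916 CPM, and neither the fusions (4101 to 4937 CPM in TAZ-CAMTA1, 3304 to 6064 in YAP-TFE3) nor TAZ4SA (2085 to 2653) and YAP5SA (2245 to 2758) were called against EV. The fusions were higher than the full-length proteins, by 0.93 ± 0.31 for TAZ-CAMTA1 over TAZ4SA (adjusted p = 0.016, lost without TAZ4SA replicate 1 at adjusted p = 0.0622) and by 0.79 ± 0.31 for YAP-TFE3 over YAP5SA (adjusted p = 0.0289). The latter was lost without YAP5SA replicate 1 or 3 or YAP-TFE3 replicate 1 (adjusted p = 0.0686 to 0.210). In the sub-confluent vector cells the level was lower, and called: EVsub held 914, 1624 and 1827 CPM, below every EV library (log2 fold change -1.28 ± 0.32, adjusted p = 0.00567), and this held without any single library. CAMTA1, also sub-confluent, held 467, 974 and 1373 CPM.

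The Col3a1 upstream window is shown because Col3a1 was 1 of 4 members whose window held a TEAD motif, the kind of site through which YAP and TAZ reach DNA. The 250 bases before the RefSeq start (GRCm38.p6, chr1:45311288-45311537, plus strand) read 5′ to 3′, with CATTCC, the reverse complement of the TEAD motif GGAATG, in capitals at 168 bases before the start:
Col3a1: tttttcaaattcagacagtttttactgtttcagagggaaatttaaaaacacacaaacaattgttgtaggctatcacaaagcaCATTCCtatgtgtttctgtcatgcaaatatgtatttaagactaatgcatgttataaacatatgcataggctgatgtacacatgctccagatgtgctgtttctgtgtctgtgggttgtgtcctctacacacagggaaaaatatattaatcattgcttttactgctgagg

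Collagen V sits inside collagen I fibrils and limits their diameter, and its chains did not move alike. Col5a2 was at 478, 517 and 753 CPM in EV and rose in all 4 lines, to 1118, 1142 and 1143 CPM in TAZ-CAMTA1, 1003, 1163 and 1868 in YAP-TFE3, 1730, 1885 and 2523 in TAZ4SA and 1798, 1954 and 1982 in YAP5SA. No library of these 4 groups overlapped EV. The log2 fold changes were 0.96 ± 0.20, 1.21 ± 0.20, 1.81 ± 0.21 and 1.71 ± 0.21 (adjusted p = 0.00144, 0.000203, 2.14e-07 and 1.76e-07), and none was lost on leaving out a library. Unlike collagen I, Col5a2 was higher under the full-length proteins than under the fusions, by 0.85 ± 0.20 for TAZ4SA over TAZ-CAMTA1 and 0.51 ± 0.20 for YAP5SA over YAP-TFE3 (adjusted p = 0.00126 and 0.0286). The latter was lost without YAP5SA replicate 1 or 3 or YAP-TFE3 replicate 2 or 3 (adjusted p = 0.0626 to 0.165).

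Col5a1, the major partner of Col5a2, measured 557, 630 and 713 CPM in EV and rose under both fusions but was called in neither full-length line. TAZ-CAMTA1 held 920, 943 and 1069 CPM (0.63 ± 0.20, adjusted p = 0.0273, lost without EV replicate 1 or 3 or TAZ-CAMTA1 replicate 2 or 3 at adjusted p = 0.0510 to 0.123). YAP-TFE3 held 887, 1053 and 1383 CPM (0.81 ± 0.20, adjusted p = 0.00687, lost without YAP-TFE3 replicate 1 at adjusted p = 0.0944). TAZ4SA (534 to 773 CPM) and YAP5SA (479 to 524 CPM) were not called, and both direct comparisons were, at 0.63 ± 0.20 and 1.13 ± 0.20 (adjusted p = 0.0113 and 3.45e-05), the former lost without TAZ4SA replicate 2 (adjusted p = 0.0583). Col5a3, a minor chain of the same collagen, showed the converse: from 12.0, 12.8 and 13.8 CPM in EV it rose to 33.3, 33.6 and 40.4 in TAZ4SA and 31.0, 41.4 and 53.8 in YAP5SA (1.47 ± 0.27 and 1.70 ± 0.27, adjusted p = 9.17e-05 and 8.91e-06), with TAZ-CAMTA1 at 7.48 to 7.87 CPM not called (adjusted p = 0.0574).

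Among the low fibrillar chains, Col11a1 (47.2, 58.0 and 106 CPM in EV) rose in YAP-TFE3 to 115, 122 and 291 CPM (1.32 ± 0.37, adjusted p = 0.0156) and, outside the rule for largest changes, in TAZ4SA to 139, 144 and 181 CPM (1.14 ± 0.37, adjusted p = 0.0111). The first was lost without EV replicate 1 or 3 or YAP-TFE3 replicate 1 (adjusted p = 0.0826 to 0.274) and the second without EV replicate 1 (adjusted p = 0.0632). Col27a1, a fibrillar chain best known from cartilage, gave the largest fall among collagens with a mean of at least 50 counts. It stood at 30.7, 42.3 and 47.2 CPM in EV, at 6.15, 7.69 and 10.2 in TAZ4SA and at 2.87, 3.29 and 4.61 in YAP5SA, 4.95-fold and 11.1-fold lower (adjusted p = 3.97e-08 and 9.3e-11). The fusions stayed within or near the EV range, at 30.1 to 34.7 and 36.5 to 45.5 CPM, and exceeded TAZ4SA and YAP5SA by 2.03 ± 0.23 and 3.51 ± 0.25 on the log2 scale.

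**Figure D3:**
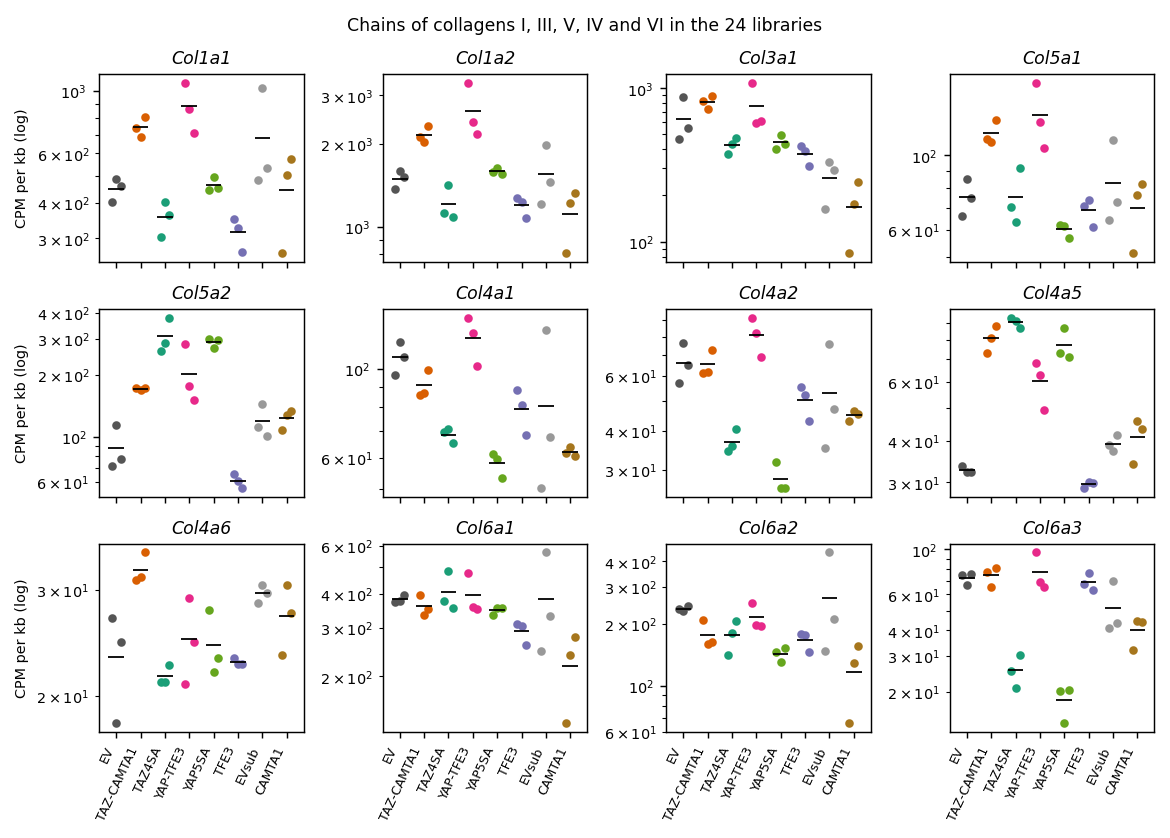
Level of 12 chains of collagens I, III, V, IV and VI in each library, as CPM per kb of principal transcript on a log axis, with a line at the group mean of each of the 8 groups. Col5a2 and Col4a5 lie above EV in all libraries of TAZ-CAMTA1, YAP-TFE3, TAZ4SA and YAP5SA, and Col6a3 lies below EV in TAZ4SA and YAP5SA.

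Collagen IV exists as networks of different chains, with Col4a1 and Col4a2 in nearly all basement membranes and Col4a5 with Col4a6 in a few, such as those around smooth muscle. The genes lie in pairs, head to head. In GENCODE M21 the starts were 72 bases apart for Col4a3 and Col4a4 and 1309 for Col4a5 and Col4a6. Those of Col4a1 and Col4a2 were 21 bases apart with the genes overlapping, so that 22 exonic bases of Col4a1 were shared. Col4a1 (639, 709 and 771 CPM in EV) fell to 431, 460 and 468 CPM in TAZ4SA and 353, 393 and 405 in YAP5SA (-0.64 ± 0.20 and -0.88 ± 0.20, adjusted p = 0.00998 and 0.000579). Col4a2 (368, 418 and 492 CPM in EV) fell with it, to 223, 231 and 262 CPM and to 169, 170 and 205 CPM (-0.84 ± 0.19 and -1.23 ± 0.19, adjusted p = 0.000698 and 5.68e-06). For both chains the full-length groups lay wholly below EV, and the calls held without any single library. Neither chain was called under a fusion, where log2 fold changes ran from -0.23 to 0.29. YAP-TFE3 exceeded YAP5SA at both (1.04 ± 0.20 and 1.52 ± 0.19), and TAZ-CAMTA1 exceeded TAZ4SA at Col4a2 (0.82 ± 0.19, adjusted p = 0.00101) but was not called at Col4a1 (0.41 ± 0.20, adjusted p = 0.0937).

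Col4a5 moved the other way, and in all 4 lines. From 210, 210 and 219 CPM in EV it rose to 479, 531 and 576 in TAZ-CAMTA1, 324, 411 and 446 in YAP-TFE3, 567, 596 and 610 in TAZ4SA and 463, 479 and 569 in YAP5SA. These were log2 fold changes of 1.31, 0.88, 1.47 and 1.24, each ± 0.12 (adjusted p = 8.74e-08, 2.13e-05, 3.24e-09 and 1.05e-08). EV and the 4 lines did not overlap, and no call was lost on leaving out a library. Its neighbour Col4a6 (120, 163 and 179 CPM in EV) was called higher in TAZ-CAMTA1 alone among the 7 comparisons with a control, at 207, 209 and 230 CPM (0.48 ± 0.13, adjusted p = 0.0127, and 0.13, adjusted p = 0.525, against EVsub). The call against EV was lost without EV replicate 2 or TAZ-CAMTA1 replicate 3 (adjusted p = 0.0614 and 0.0781). Col4a6 was higher in TAZ-CAMTA1 than in TAZ4SA (0.59 ± 0.14, adjusted p = 0.000972). Per kb, the ratio of Col4a5 to Col4a1 was 0.276 to 0.347 in EV, 0.853 to 0.935 in TAZ-CAMTA1, 0.489 to 0.511 in YAP-TFE3, 1.29 to 1.34 in TAZ4SA and 1.20 to 1.47 in YAP5SA.

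Col4a4, a chain of the kidney and eye network, was singled out after its values were seen. It had 0, 1 and 1 counts in EV, but 8, 13 and 35 in TAZ4SA and 10, 24 and 52 in YAP-TFE3, against 1 to 4 in TAZ-CAMTA1 and YAP5SA. These 2 groups held 142 of its 170 counts, and it reached the count limit through them. Its values are therefore given as a description, with no fold and no test. It nevertheless stands among the risen members counted above for both groups and in the counts of all 4 direct comparisons. The unannotated stretch between the starts of Col4a4 and Col4a3 is shown because it is the only upstream sequence the pair has (RefSeq, GRCm38.p6, chr1:82586850-82586920, read on the minus strand, towards Col4a4), and it held no TEAD motif:
Col4a4: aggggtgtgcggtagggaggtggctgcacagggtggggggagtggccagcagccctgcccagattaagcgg

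The FACIT class split within itself. Col12a1, which binds collagen I fibrils in tendon and fascia, was very tight in EV at 41.7, 42.0 and 45.8 CPM. It rose to 112, 113 and 127 CPM in TAZ-CAMTA1 (1.44 ± 0.13, adjusted p = 6.21e-08), 73.7, 82.6 and 114 in YAP-TFE3 (1.06 ± 0.13, adjusted p = 5.58e-06) and 77.6, 79.3 and 86.0 in YAP5SA (0.91 ± 0.13, adjusted p = 2.26e-06). TAZ4SA, at 33.2, 35.8 and 45.8 CPM, was not called (adjusted p = 0.275) and was below YAP5SA by 1.08 on the log2 scale (adjusted p = 2.77e-06). Col12a1 was also the one collagen that rose in both partner-only lines: 66.2, 73.9 and 75.7 CPM in TFE3 (0.74 ± 0.13, adjusted p = 0.0022), and 88.7, 88.9 and 95.2 CPM in CAMTA1 against 50.8, 52.6 and 53.4 in EVsub (0.80 ± 0.13, adjusted p = 0.00174). None of these 5 calls was lost on leaving out a library.

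Col16a1, a minor fibril-associated collagen, fell under the full-length proteins. It measured 275, 295 and 342 CPM in EV, 72.5, 80.5 and 148 in TAZ4SA and 54.1, 67.3 and 69.3 in YAP5SA, without overlap (-1.60 ± 0.19 and -2.26 ± 0.20, adjusted p = 4.76e-07 and 1.54e-09). In the fusions it stayed at 276 to 292 and 311 to 375 CPM. Col20a1 rose instead, from 8.12, 10.7 and 11.5 CPM in EV to 25.7, 41.1 and 51.3 in TAZ4SA and 23.9, 35.6 and 37.6 in YAP5SA (1.96 ± 0.23 and 1.68 ± 0.23, adjusted p = 2.81e-07 and 9.06e-07). In YAP-TFE3 it reached 13.9 to 20.4 CPM (0.79 ± 0.23, adjusted p = 0.0182), a call lost without EV replicate 2 or YAP-TFE3 replicate 1 or 2 (adjusted p = 0.0793 to 0.0894). Col9a3, a cartilage chain present at 1.77, 3.50 and 4.35 CPM in EV, was lower in EVsub at 0.972, 1.03 and 1.18 CPM (-1.60 ± 0.34, adjusted p = 0.00182). Of its exonic bases, 6.07% overlap Tcfl5, and its counts carry that uncertainty. In TAZ-CAMTA1 it was at 1.44 to 1.86 CPM (-0.97 ± 0.32, adjusted p = 0.0356), a call lost without EV replicate 1 or 3 or any TAZ-CAMTA1 replicate (adjusted p = 0.0504 to 0.220). The calls in TAZ4SA (-0.77 ± 0.33, adjusted p = 0.0482) and YAP5SA (-0.95 ± 0.33, adjusted p = 0.0141) were lost without EV replicate 1 or 3 or TAZ4SA replicate 2 or 3 (adjusted p = 0.114 to 0.257) and without EV replicate 1 or YAP5SA replicate 3 (adjusted p = 0.0519 to 0.104).

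Collagen VI is a microfibril of 3 different chains that anchors cells to the surrounding matrix. Col6a1 was called in none of the 7 comparisons with a control, at 1532, 1545 and 1620 CPM in EV and 1368 to 1985 CPM over the fusion and full-length groups. Col6a2 (907, 930 and 960 CPM in EV) was lower in YAP5SA at 517, 576 and 602 CPM (-0.72 ± 0.29, adjusted p = 0.0306), a call lost without EV replicate 1 or 3 or YAP5SA replicate 1 or 2 (adjusted p = 0.0555 to 0.0875). Col6a3, the large chain that carries most of the globular domains, fell much further. It stood at 599, 672 and 680 CPM in EV, 188, 228 and 273 in TAZ4SA and 126, 181 and 184 in YAP5SA (-1.50 ± 0.20 and -1.99 ± 0.21, adjusted p = 2.28e-06 and 2.09e-08), with no overlap and no call lost on leaving out a library. In TAZ-CAMTA1 (586 to 732 CPM) and YAP-TFE3 (589 to 869 CPM) it was not called, and the fusions exceeded their full-length counterparts by 1.54 ± 0.20 and 2.08 ± 0.21 (adjusted p = 2.18e-06 and 1.25e-08).

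A further 3 upstream windows are printed for comparison with Col3a1, of Col6a3 as a gene that fell under the full-length proteins, Col7a1 as one that rose under the fusions and Col8a1 as one called higher in all 4 lines. Each is the 250 bases before a RefSeq start (GRCm38.p6), read 5′ to 3′ on the gene's strand, at chr1:90843972-90844221 (minus), chr9:108953336-108953585 (plus) and chr16:57754738-57754987 (minus), and none held the TEAD motif on either strand or the E-box, so nothing is in capitals:
Col6a3: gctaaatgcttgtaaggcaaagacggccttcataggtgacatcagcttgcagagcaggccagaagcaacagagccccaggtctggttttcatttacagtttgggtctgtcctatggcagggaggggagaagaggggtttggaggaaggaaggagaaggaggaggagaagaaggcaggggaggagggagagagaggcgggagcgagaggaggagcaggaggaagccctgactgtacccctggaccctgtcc
Col7a1: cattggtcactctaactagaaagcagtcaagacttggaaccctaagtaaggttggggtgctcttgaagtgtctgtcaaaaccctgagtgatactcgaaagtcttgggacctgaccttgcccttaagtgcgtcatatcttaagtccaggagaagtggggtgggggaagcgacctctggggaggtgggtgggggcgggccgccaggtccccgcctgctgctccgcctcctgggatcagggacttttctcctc
Col8a1: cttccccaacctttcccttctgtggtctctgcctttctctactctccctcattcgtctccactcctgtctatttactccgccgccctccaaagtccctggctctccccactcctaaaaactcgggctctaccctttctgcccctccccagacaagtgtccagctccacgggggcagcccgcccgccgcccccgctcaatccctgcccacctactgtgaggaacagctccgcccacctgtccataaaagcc

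Windows of this kind were found for 25 of the 31 members (27 windows), and 4 members had a TEAD motif in 1 of them, Col3a1, Col18a1, Col20a1 and Col6a2, where 12.6% of 32851 such RefSeq windows held one. Of the 250 bases, annotated exons covered 241 in the matching window of Col18a1, 250 in Col20a1, 226 in Col6a2 and 0 in Col3a1. The E-box CACGTG, to which TFE3 binds, was in no window of the 25 members, beside 6.02% of all windows. These letters are a description of the windows and do not show where a factor binds.

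Among the remaining collagens, Col7a1, the anchoring fibril of skin, was low and was higher in both fusions than in EV. It measured 4.25, 5.57 and 5.80 CPM in EV, 9.59, 12.1 and 12.9 in TAZ-CAMTA1 and 14.2, 14.5 and 16.3 in YAP-TFE3 (1.15 ± 0.21 and 1.52 ± 0.21, adjusted p = 0.000304 and 1.6e-05). TAZ4SA (4.12 to 8.44 CPM) and YAP5SA (4.37 to 5.13 CPM) overlapped EV, and both direct comparisons were called (0.79 ± 0.20 and 1.69 ± 0.21, adjusted p = 0.00254 and 3.01e-07). The level was not particular to the fusions: CAMTA1 cells held 10.02, 13.94 and 13.96 CPM of Col7a1, overlapping TAZ-CAMTA1. EVsub, at 6.72 to 9.43 CPM, also lay above EV. CAMTA1 was not called against EVsub at Col7a1, and its difference from EV was not tested. Col8a1, a short-chain collagen of vessel walls, was higher in all 4 lines. EV held 40.3, 52.4 and 82.0 CPM, TAZ-CAMTA1 116, 139 and 150, YAP-TFE3 77.3, 98.4 and 127, TAZ4SA 108, 137 and 216 and YAP5SA 79.2, 84.9 and 112. YAP-TFE3 and YAP5SA overlapped EV replicate 2. CAMTA1 cells held 125, 146 and 152 CPM, not called against EVsub. TAZ-CAMTA1 and TAZ4SA kept their calls without any library (1.21 ± 0.24 and 1.41 ± 0.25), whereas YAP-TFE3 (0.79 ± 0.24) lost its call without EV replicate 1 or 3 or YAP-TFE3 replicate 1 or 2 (adjusted p = 0.0562 to 0.241) and YAP5SA (0.66 ± 0.24) without EV replicate 1 or 3 or YAP5SA replicate 1 (adjusted p = 0.0685 to 0.123).

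Col28a1, a collagen of the nervous system, went in opposite directions. It was at 2.58, 3.41 and 7.93 CPM in EV, 1.33, 1.72 and 1.72 in TAZ-CAMTA1, 1.02, 1.57 and 2.26 in YAP-TFE3, 2.03, 2.11 and 2.46 in YAP5SA and 10.6, 10.9 and 12.1 in TAZ4SA. The log2 fold changes were -1.53 ± 0.37, -1.52 ± 0.37, -1.06 ± 0.37 and 1.28 ± 0.34. The 3 lower groups lay below every EV library, and their calls were lost without EV replicate 2, the high one (adjusted p = 0.0592, 0.0817 and 0.256), and the rise in TAZ4SA was not. TAZ4SA exceeded TAZ-CAMTA1 by 2.81 ± 0.37 and YAP5SA by 2.34 on the log2 scale (adjusted p = 2e-06 and 3.93e-05).

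A few members below the mean of 50 counts were chosen after their values were seen. Col6a4 was at 0.286 to 0.380 CPM in EV and at 2.91, 3.31 and 3.87 CPM in TAZ-CAMTA1 and 2.59, 2.98 and 4.86 in YAP-TFE3, 10.1-fold and 10.4-fold higher (adjusted p = 3.91e-07 and 5.33e-07). In TAZ4SA it was at 0.150 to 0.298 CPM. In YAP5SA it was called higher too, at 0.565, 0.634 and 0.736 CPM (0.97, adjusted p = 0.0407), a call lost without any EV replicate or YAP5SA replicate 2 or 3 (adjusted p = 0.0512 to 0.117). Col14a1, a FACIT collagen of skin and tendon, rose in YAP-TFE3 from 0.211, 0.221 and 0.668 to 1.40, 2.01 and 2.51 CPM (2.43 ± 0.43, adjusted p = 0.000362) and was lower in TAZ-CAMTA1 than in YAP-TFE3 by 2.80 on the log2 scale (adjusted p = 0.000176). Col10a1, known from hypertrophic cartilage, rose under TAZ4SA and YAP5SA (1.06 to 1.27 and 1.27 to 1.86 CPM against 0.310 to 0.507 in EV). Col17a1, a transmembrane collagen of epithelial anchoring, was the one member lower in all 4 lines, from 2.62 to 3.25 CPM in EV to 1.40 to 1.54, 1.19 to 1.55, 0.225 to 1.24 and 0.589 to 1.13 CPM in TAZ-CAMTA1, YAP-TFE3, TAZ4SA and YAP5SA. Its TAZ-CAMTA1 call (adjusted p = 0.0203) was lost without EV replicate 2 or 3 or TAZ-CAMTA1 replicate 2 or 3 (adjusted p = 0.0501 to 0.0755).

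**Figure D4:**
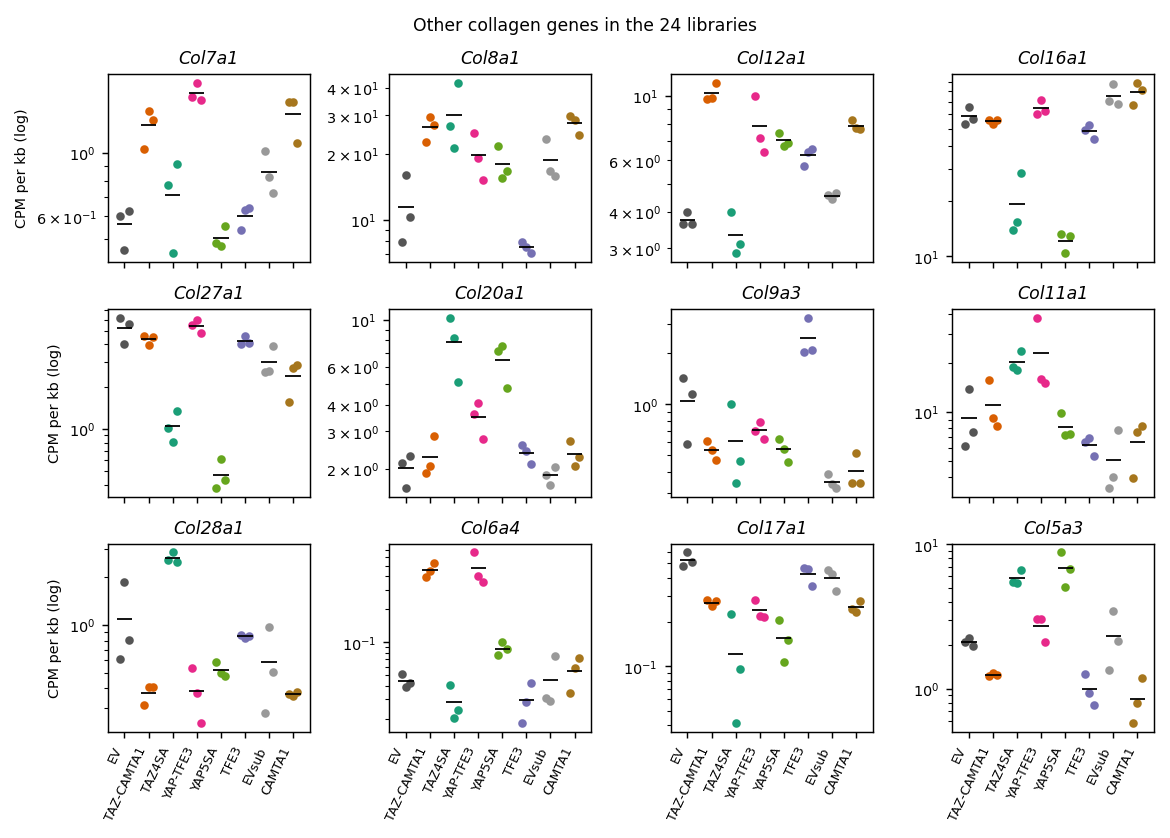
Level of 12 further collagens in each library, as CPM per kb of principal transcript on a log axis, with a line at the group mean. Col12a1 lies above its control in TFE3 and CAMTA1 as well as in the fusions, Col27a1 and Col16a1 drop in TAZ4SA and YAP5SA, and Col28a1 is high in TAZ4SA.

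Across the 4 lines, 8 of 31 collagens (25.8%) were higher than EV under both fusions, as were 5.93% of all genes tested. Col1a1, Col5a1 and Col7a1 of these were called in neither full-length line and higher in both direct comparisons, as were 0.592% of all genes. The 8 became 5 without EV replicate 1 or 3 or YAP-TFE3 replicate 1, and the 3 became 1 without TAZ4SA replicate 2, TAZ-CAMTA1 replicate 2 or 3 or YAP-TFE3 replicate 1. Under both TAZ4SA and YAP5SA 9 members (29.0%) were lower, beside 23.0% of all genes, and 7 of these (22.6%, beside 15.8% of all genes) were called under neither fusion: Col4a1, Col4a2, Col6a3, Col15a1, Col16a1, Col22a1 and Col27a1. In 5 of these, Col4a2, Col6a3, Col15a1, Col16a1 and Col27a1, the fusion was also higher in both direct comparisons (16.1%, beside 12.3% of all genes). The differences of Col15a1 rest on few counts (8, 10 and 11 in EV, 0 or 1 in the full-length libraries). It reached the count limit only through EVsub replicate 2. Its call in each direct comparison was lost in 5 of 6 leave-outs (adjusted p = 0.0543 to 0.0653 and 0.0627 to 0.136). Altogether 11 members (35.5%) were higher in both fusions than in their full-length counterparts, where 21.2% of all genes were, and 4 (12.9%) were lower, where 22.4% of all genes were, namely Col5a2, Col5a3, Col10a1 and Col20a1.

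Because chains of one collagen are assembled together, their ratios per kb were compared. Col5a1 to Col5a2 was 0.747 to 0.959 in EV, 0.648 to 0.738 in TAZ-CAMTA1 and 0.584 to 0.713 in YAP-TFE3, but 0.223 to 0.270 in TAZ4SA and 0.193 to 0.227 in YAP5SA. Col6a3 to Col6a1 was 0.177 to 0.200 in EV, 0.194 to 0.230 and 0.185 to 0.203 in the fusions, and 0.0431 to 0.0857 and 0.0392 to 0.0601 in TAZ4SA and YAP5SA. Both ratios separated the full-length proteins from EV and from the fusions without overlap. Col1a1 to Col1a2 was 0.293 to 0.304 in EV, 0.338 to 0.348 in TAZ-CAMTA1 and 0.320 to 0.359 in YAP-TFE3, with 0.368 to 0.515 in EVsub. Col4a1 to Col4a2 was 1.53 to 1.70 in EV, below that in both fusions (1.37 to 1.41 in TAZ-CAMTA1 and 1.46 to 1.50 in YAP-TFE3), above it in YAP5SA (1.93 to 2.26) and overlapping it in TAZ4SA (1.60 to 2.01). Col4a5 to Col4a6 was 1.25 to 1.79 in EV and above it in all 4 lines, at 2.36 to 2.58 in TAZ-CAMTA1, 2.01 to 3.26 in YAP-TFE3, 3.86 to 4.42 in TAZ4SA and 2.64 to 3.97 in YAP5SA. Where groups did not overlap the exact two-sided permutation p was 0.10, the smallest possible, with an adjusted p over 11 comparisons of 0.16 for Col5a1 to Col5a2 and 0.18 for the other 4. Ratios depend on the transcript length used: by all exons the EV median of Col1a1 to Col1a2 was 0.635 in place of 0.303.

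**Figure D5:**
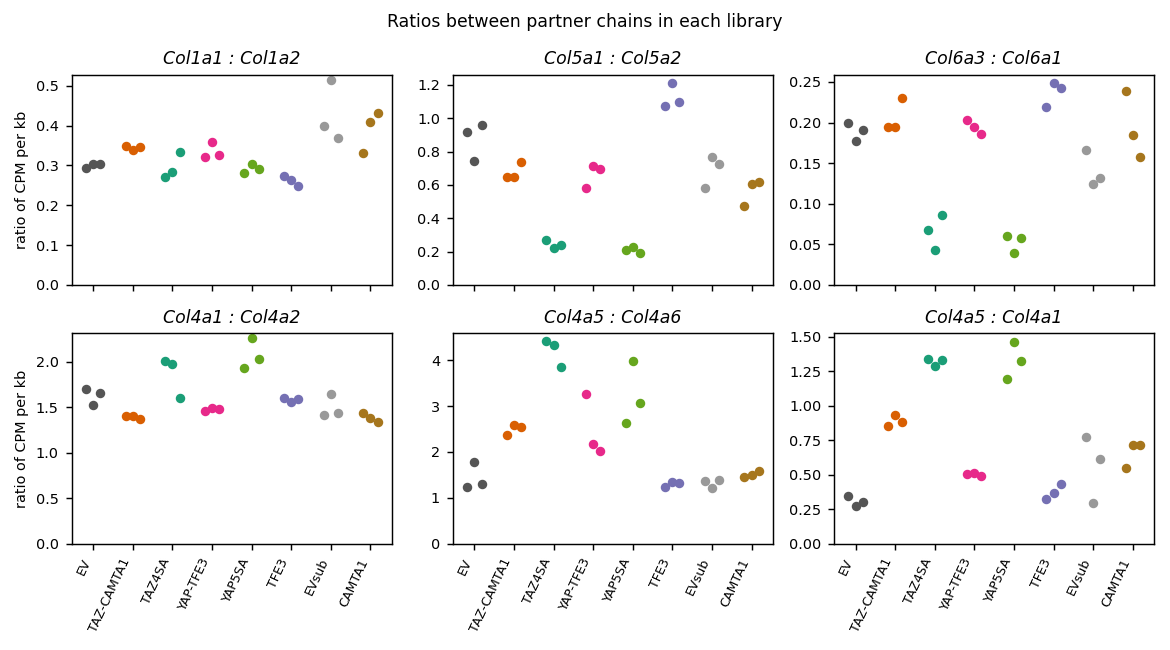
Ratio of pairs of collagen chains in each library, from CPM per kb of principal transcript, with 1 point per library and an axis from 0. The Col5a1 to Col5a2 and Col6a3 to Col6a1 ratios are low in all TAZ4SA and YAP5SA libraries, and the Col4a5 to Col4a1 ratio is high there.

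The collagens called in the single-partner lines and in EVsub, counted above, were as follows. TFE3 cells, beside Col12a1, gave Col9a3 at 6.21, 6.35 and 9.92 CPM (1.22 ± 0.30, adjusted p = 0.025) and Col5a3 at 4.74, 5.70 and 7.73 CPM (-1.10 ± 0.28, adjusted p = 0.0325). The first was lost without EV replicate 2 or 3 or TFE3 replicate 2 or 3 (adjusted p = 0.0505 to 0.178) and the second without any EV replicate or TFE3 replicate 2 or 3 (adjusted p = 0.0729 to 0.198). In CAMTA1 against EVsub, Col5a3 (3.53, 4.85 and 7.24 CPM against 8.20, 13.0 and 21.1) and Col6a2 (260, 507 and 617 CPM against 579, 831 and 1745) were lower (-1.43 ± 0.28 and -1.19 ± 0.29, adjusted p = 0.00872 and 0.0326). Replicate 2 of EVsub was the highest library for both, and without it, or without CAMTA1 replicate 1 or 2, both calls were lost (adjusted p = 0.0549 to 0.111 for Col5a3 and 0.0949 to 0.358 for Col6a2). The other member called lower was Col15a1, with 0, 1 and 2 counts in CAMTA1 and 1, 3 and 47 in EVsub, a call lost without EVsub replicate 2 or any CAMTA1 replicate (adjusted p = 0.0721 to 0.720). Col15a1 reached the count limit only through EVsub replicate 2, the library with 47 counts. Its fall is therefore a description only, although it stands among the fallen members counted above. Leaving out EVsub replicate 2 left 1 of the 4 called members, Col12a1.

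In EVsub against EV, Col7a1 (6.72, 7.62 and 9.43 CPM in EVsub, 0.60 ± 0.21, adjusted p = 0.0404) and Col8a1 (80.9, 85.6 and 120 CPM, 0.71 ± 0.24, adjusted p = 0.0389) were higher, and Col3a1 and Col9a3, described above, and Col27a1 were lower, the last at 19.3, 19.7 and 29.4 CPM (-0.82 ± 0.22, adjusted p = 0.00919). Col7a1 lost its call without any EV replicate or EVsub replicate 1 or 2 (adjusted p = 0.0606 to 0.178), Col8a1 without EV replicate 1 or 3 or EVsub replicate 1 or 2 (adjusted p = 0.0566 to 0.197) and Col27a1 without EV replicate 1 or EVsub replicate 1 or 2 (adjusted p = 0.0524 to 0.0575). Without EVsub replicate 2 no member was called higher and 7 were called lower, Col4a1 (-0.86) and Col4a2 (-0.68) among them.

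Since the density of the TAZ-CAMTA1 cultures can be read in 2 ways, it was also compared with EVsub, where 21.4% of all genes were called. There 5 collagens were higher and 2 lower, and 3 of the 12 calls against EV were shared: Col4a5 (1.05), Col12a1 (1.17) and Col6a4 (3.34). Col3a1 (1.64, adjusted p = 0.000698) and Col11a1 (1.12, adjusted p = 0.0342) were higher and Col5a3 (-0.89, adjusted p = 0.025) and Col22a1 (-1.72, adjusted p = 0.0175) lower. The rises of Col1a1, Col4a6, Col5a1, Col5a2, Col7a1 and Col8a1 in TAZ-CAMTA1 were not called against this control (log2 fold changes 0.13 to 0.54, adjusted p = 0.0563 to 0.758).

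The enzymes and receptors that handle collagen were read from lists, to be set beside the genes tested as a whole, of which 12.5% rose and 8.98% fell in TAZ-CAMTA1, 10.6% and 4.74% in YAP-TFE3, 31.1% and 26.4% in TAZ4SA and 36.3% and 34.9% in YAP5SA. Of 25 genes for chain modification, folding and secretion, 23 were tested, and 7 rose and 0 fell in TAZ-CAMTA1, 8 and 0 in YAP-TFE3, 10 and 6 in TAZ4SA and 9 and 7 in YAP5SA. At an unadjusted p under 0.05, 1 and 2 were lower in the fusions, and by DESeq2 0 in each. The 8 in YAP-TFE3 became 4 without YAP-TFE3 replicate 1 or EV replicate 1 or 3, with Creb3l1, Plod2, Fkbp10 and P4hb no longer called, and the 10 in TAZ4SA became 5 without TAZ4SA replicate 2, with Sec24d, Plod1, Serpinh1, P3h4 and Sec23a no longer called. Without TAZ-CAMTA1 replicate 1, 1 gene was called lower in TAZ-CAMTA1. Serpinh1, the collagen chaperone of the endoplasmic reticulum, was at 620 to 792 CPM in EV and 1082 to 1219 in TAZ-CAMTA1 (0.77, adjusted p = 0.00248). It was called higher in TAZ4SA and YAP5SA too (0.41 in each, adjusted p = 0.0459 and 0.0394) but not called in YAP-TFE3. The calls in TAZ4SA and YAP5SA were lost in 7 and 5 of 11 alternatives. P4ha1, a prolyl hydroxylase subunit, rose in both fusions (0.67 and 0.84, adjusted p = 0.00471 and 0.000916) and in YAP5SA (0.52, adjusted p = 0.00702). P3h3, a prolyl 3-hydroxylase family member, fell from 186 to 199 CPM in EV to 67.0 to 83.6 in TAZ4SA and 81.0 to 88.5 in YAP5SA.

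Of 13 genes for propeptide removal and cross-linking, 9 were tested. In TAZ4SA 2 rose and 6 fell and in YAP5SA 2 rose and 7 fell, whereas 4 rose and 0 fell in TAZ-CAMTA1 and 2 and 0 in YAP-TFE3 (unadjusted, 0 and 1 lower, and by DESeq2 0 in each). Tll1, among the 2 risen in each full-length line, was far higher in TAZ4SA than in EV or YAP5SA (8.30 and 4.65 on the log2 scale). Whether it would reach the count limit without TAZ4SA was not tested, so its rises are a description only. The rise of Bmp1 in YAP-TFE3 was lost without EV replicate 1 or 3 or YAP-TFE3 replicate 1 or 2, and that of Tll1 in YAP5SA without EV replicate 1 or 3 or YAP5SA replicate 1 or 2, each of which left 1 risen gene. Adamts2, which removes the amino propeptide of fibrillar collagens, fell from 326 to 430 CPM in EV to 137 to 160 in TAZ4SA and 107 to 130 in YAP5SA (-1.34 and -1.70, adjusted p = 3.29e-05 and 8.46e-07). Bmp1, which removes the carboxy propeptide, Pcolce, which enhances it, and the cross-linking enzyme Loxl1 fell with it in both (adjusted p at most 1.27e-05). Loxl4, a related cross-linking enzyme, rose in all 4 lines, from 6.68 to 8.12 CPM in EV to 46.8 to 64.5 in TAZ-CAMTA1, 20.4 to 24.3 in YAP-TFE3, 18.7 to 31.3 in TAZ4SA and 22.6 to 36.9 in YAP5SA. It was also higher in EVsub than in EV (1.52, adjusted p = 0.000109), a call lost in 0 of 11 alternatives. In CAMTA1 it was higher than in EVsub (0.96, adjusted p = 0.0227), a call lost in 5 of 11. In the direct comparisons 8 of 9 were higher in TAZ-CAMTA1 than TAZ4SA and 7 of 9 in YAP-TFE3 than YAP5SA, where 26.6% and 36.4% of all genes were.

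Of 10 collagen receptors, 7 were tested. In TAZ-CAMTA1 4 rose and in YAP-TFE3 5, with 0 lower in each by edgeR, by DESeq2 and at an unadjusted p under 0.05, while 1 was higher and 2 lower in TAZ4SA and 2 higher and 4 lower in YAP5SA. The 5 in YAP-TFE3 became 2 without YAP-TFE3 replicate 1 or EV replicate 1 (Ddr2, Itga10 and Mrc2 were lost) and 3 without YAP-TFE3 replicate 2 or EV replicate 3. In TAZ4SA 2 were higher without EV replicate 1 or 3 and 1 was lower without TAZ4SA replicate 1, and in YAP5SA 1 was higher without YAP5SA replicate 3. Ddr2, a receptor kinase for fibrillar collagen, was at 449 to 476 CPM in EV, 807 to 967 in TAZ-CAMTA1 (0.96, adjusted p = 0.000197) and 283 to 297 in YAP5SA (-0.67, adjusted p = 0.00101). Itgb1, the common beta subunit of the collagen-binding integrins, rose in both fusions (0.66 and 0.65, adjusted p = 8.88e-05 and 0.000147). Itga11, which pairs with it, fell from 42.9 to 48.1 CPM in EV to 7.91 to 8.55 in YAP5SA (-2.46, adjusted p = 4.12e-06). In TFE3 cells 0 genes of the 3 lists were called by edgeR and 0 by DESeq2, while 5, 3 and 1 passed an unadjusted p under 0.05 and up to 3, 4 and 1 were called under some alternative setting.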

How the data were processed

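The authors deposited raw gene counts, 1 table for each of 24 libraries, made from poly(A) RNA as stranded 75 bp paired reads with bcbio-nextgen 1.0.8 and Hisat2 on mm10 with Ensembl release 97. The study's methods also name Salmon, with tximport for gene-level counts, and do not say which route made the deposited whole-number tables or with what strand setting, so antisense overlap cannot be told apart. Genes were matched by identifier to GENCODE M21 (37693 of 39017 identifiers). A mean of 5 counts was required for testing. Quasi-likelihood models were fitted in edgeR 4.0.16 under R 4.3.3 on TMM-scaled counts, with all 24 libraries in 1 fit, no covariate and Benjamini-Hochberg adjustment over 14361 genes (adjusted p under 0.05). Values are CPM (counts per 1000000 of the TMM-effective library size), and levels between genes are per kb of the principal transcript. Sums, shares and ratios were compared by exact two-sided permutation tests (Python 3.11.15). Upstream sequences came from a RefSeq promoter table (GRCm38.p6).

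The collagens and the lists of related genes were chosen with earlier results of these data known. Chains of collagens I, III, IV, V and VI with a mean of at least 50 counts were named, and for each comparison with a control the 2 collagens with the largest called rise and the 2 with the largest called fall among those at that mean. Any other collagen singled out was chosen after its values were seen. Replicate pairs differed by more than counting error (chi-square per degree of freedom 5.92 to 124.38), so no library was counted as a duplicate. With TAZ-CAMTA1 against EV simulated on 14361 genes of which 200 were changed, the fit found 140 of those shifted by 1 on the log2 scale (6 calls were false) and 184 of those shifted by 2 (19 were false). Alternatives were DESeq2 1.42.0, its size factors, no filter on low counts, only the 2 groups compared, a replicate block, and leaving out each library. EVsub as the control of TAZ-CAMTA1 was added after the data were seen.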

Additional observations from a re-analysis of the deposited data

How the results depend on the processing

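The numbers of called collagens in TAZ4SA and YAP5SA against EV, in both fusions against their full-length counterparts and in TAZ4SA against YAP5SA stayed within 1.5 times the reported number under the alternatives that change the fit. Leaving out 1 library gave 17 to 19 calls for TAZ4SA, 16 to 18 for YAP5SA, 7 to 10 for TAZ-CAMTA1 and 9 to 16 for YAP-TFE3 against EV, 1 to 3 for TFE3, 1 to 8 for CAMTA1 against EVsub and 3 to 7 for EVsub against EV. With EVsub as its control TAZ-CAMTA1 gave 7 calls, and Col9a3 reversed to 0.63 on the log2 scale (adjusted p = 0.214). Without the filter on low counts TFE3 gave 5, CAMTA1 7 and EVsub 9 calls, and with only the 2 groups compared TFE3 gave 7, CAMTA1 1 and EVsub 3. DESeq2 gave 7 calls for CAMTA1 against EVsub and 7 for TAZ-CAMTA1 against YAP-TFE3. The cause of these shifts was not tested. Over the named collagens and their alternatives 1103 values kept direction and side of the threshold, 67 lost the call, 33 gained it and 1 reversed.

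The same replicate numbers did not pair the libraries: deviations of same-numbered libraries correlated between -0.212 and 0.41, in 10 of 33 pairs the library correlated best with its own number, and in 0 comparisons was every pair above 0.1. With replicate number as a block, EVsub against EV gave 3 calls, and no other count moved by more than 1.5 times. Collagens below 50 counts rest on few reads, intervals of a 3-library design are wide, and an exact test of 3 against 3 cannot go below p = 0.10.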
